A study of Homo sapiens with 6 samples.

Results

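RNA antisense to protein-coding genes was taken as the listed positions that lie in no GENCODE release 44 gene on their own strand but inside a protein-coding gene on the opposite strand, with the mitochondrial chromosome left out. Of the 387463 positions of the series, 1111 met this rule. The table of the imbalanced dNTP libraries held 716 of them, the table of the balanced dNTP libraries held 449, and 54 stood in both. The reference base in the tables was that of hg38 at all 1111 positions. Positions up to 100 nt apart were joined into 288 loci, and each locus carries the name of the protein-coding gene that it faces, its host, with a number where a host holds several loci. The 288 loci lie opposite 213 hosts.

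Nm-mut-seq detects 2′-O-methylated G, A and C as mutations to T, which arise during cDNA synthesis on the methylated base with surplus dATP. Chromatin-associated RNA of HepG2, a line of human hepatocellular tumour cells, was sampled in 3 biological replicates, after depletion of ribosomal RNA and removal of RNA under 200 nt. One portion of every replicate's ligated RNA was reverse transcribed with imbalanced dNTP (dATP at 1 mM, and dGTP, dCTP and dTTP at 2 µM each) and another with balanced dNTP (all of them at 1 mM), called input. The conditions of the 6 libraries thus differ in the reverse transcription and not in the cells. Of 10 hepatocyte markers, 9 had listed positions on their own strand, from APOB with 6226 positions under imbalanced dNTP to TTR with 3 positions under balanced dNTP only, and FGB had none. None of 10 markers of blood, stromal, endothelial, glial and epidermal cells had any.

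Antisense transcripts are copied from the opposite strand of a gene, often start near its promoter or run on from a neighbouring gene, and stay at low levels on chromatin. 2′-O-methylation is densest in rRNA and spliceosomal snRNA, where fibrillarin places it with box C/D snoRNAs as guides. U3 is the box C/D snoRNA needed for cleavage of pre-rRNA, 28S rRNA is the long RNA of the large ribosomal subunit, and 7SL is the RNA of the signal recognition particle. The human genome carries many sequence copies of these RNAs, a share of them inside introns of protein-coding genes and in the antisense orientation.

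The sequences of the loci on which the results turn are shown first, read 5′ to 3′ along the antisense RNA from hg38, with short flanks. Capitals mark the positions that passed the Nm criteria as used here. These were a depth of at least 10 reads and at least 3 reads with T in all 3 replicates. The mutation ratio (T/N, reads with T over depth) also had to exceed the input ratio more than 3-fold in all 3. The paper further required a ratio above that of an unmodified spike-in, which was not applied. More positions of the series passed here than the paper called, so a passing site need not be a site of the paper. The first group aligns with U3, and the sequence of SNORD3E or SNORD3A below a locus is its best match among annotated structural RNAs, with capitals at bases that differ from the locus.
RHPN2, chr19:33051424-33051483, plus strand: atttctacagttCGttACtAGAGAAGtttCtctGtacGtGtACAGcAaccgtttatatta
SNORD3E, chrX:70846228-70846295, minus strand: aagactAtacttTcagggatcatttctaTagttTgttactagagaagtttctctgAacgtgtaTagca
TRIM23, chr5:65599305-65599365, plus strand: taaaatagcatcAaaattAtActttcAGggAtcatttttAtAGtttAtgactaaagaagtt
ADGRB3_1, chr6:68665157-68665264, minus strand: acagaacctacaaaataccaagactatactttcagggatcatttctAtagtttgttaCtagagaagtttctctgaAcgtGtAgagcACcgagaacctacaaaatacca
MN1, chr22:27793334-27793403, plus strand: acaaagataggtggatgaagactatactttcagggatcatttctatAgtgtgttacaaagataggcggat
SNORD3A, chr17:19188016-19188054, plus strand: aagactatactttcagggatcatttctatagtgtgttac

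The second group aligns with 28S rRNA. The stretch of 28S rRNA under SEC14L1_2 and TXNL4A is that of the RNA45SN1 copy and has capitals at bases that differ from the locus.
SEC14L1_2, chr17:77162225-77162318, minus strand: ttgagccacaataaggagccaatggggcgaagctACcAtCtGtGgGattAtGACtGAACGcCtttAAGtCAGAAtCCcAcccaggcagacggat
28S rRNA aligned to SEC14L1_2, chr21:8445790-8445901, plus strand: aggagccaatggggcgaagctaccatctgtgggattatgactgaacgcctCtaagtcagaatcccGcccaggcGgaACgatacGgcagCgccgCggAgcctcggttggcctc
TXNL4A, chr18:80012954-80013051, plus strand: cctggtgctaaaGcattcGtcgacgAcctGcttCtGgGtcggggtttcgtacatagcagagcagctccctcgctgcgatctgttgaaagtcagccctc
28S rRNA aligned to TXNL4A, chr21:8446060-8446209, plus strand: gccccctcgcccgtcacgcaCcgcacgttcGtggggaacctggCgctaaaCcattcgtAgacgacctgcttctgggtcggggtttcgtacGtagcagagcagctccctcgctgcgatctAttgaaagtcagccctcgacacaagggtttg
DLG2_1, chr11:85483961-85484069, plus strand: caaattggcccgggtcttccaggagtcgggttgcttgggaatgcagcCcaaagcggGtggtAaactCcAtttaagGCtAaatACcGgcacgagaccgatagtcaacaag
UNC45B, chr17:35151129-35151330, minus strand: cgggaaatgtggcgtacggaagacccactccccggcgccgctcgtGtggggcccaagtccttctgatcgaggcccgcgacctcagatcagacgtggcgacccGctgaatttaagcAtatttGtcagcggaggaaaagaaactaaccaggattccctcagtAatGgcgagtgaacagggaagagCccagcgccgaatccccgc

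The third group had no match of at least 85% identity over at least 50 nt, and is shown because its depth or T/N was high or changed between the conditions. PARP16_2 begins right after the 3′ end of RNU5A-1, a U5 snRNA gene on the same strand.
BICC1, chr10:58761939-58761987, minus strand: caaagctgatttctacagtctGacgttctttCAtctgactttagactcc
CDKL4, chr2:39220937-39220992, plus strand: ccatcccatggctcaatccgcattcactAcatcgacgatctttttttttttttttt
HHAT, chr1:210374245-210374295, minus strand: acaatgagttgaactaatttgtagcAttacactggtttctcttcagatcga
PARP16_2, chr15:65296142-65296196, plus strand: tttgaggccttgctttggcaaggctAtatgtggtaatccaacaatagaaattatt

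The antisense loci resembled structural RNAs more often than other loci did. Of the 288 loci, 67 (23.3%) aligned with a structural RNA encoded elsewhere at 85% identity or more over at least 50 nt. On the own strand of protein-coding genes 1034 of 63847 loci did (1.62%), and of the loci with no gene on their strand and no protein-coding gene opposite, 220 of 2408 did (9.14%). At 90% identity the shares were 15.97%, 0.757% and 5.98%. These shares are given without a test, because loci of one repeat family share their sequence. Both comparison sets left out positions in or near a structural RNA gene on their strand, and very long loci. The antisense loci were not filtered in this way. The matched RNAs were 28S rRNA at 25 loci, U3 at 19, 7SL at 12, U2 snRNA at 5, U5 snRNA and the mitochondrial 16S rRNA gene MT-RNR2 at 2 each, and U6 snRNA and another C/D snoRNA at 1 each. Identity to 28S rRNA ran from 85.03 to 98.6% with a median of 90.8%, and 12 of the 25 matches lay in the last 600 nt of the 5066 nt RNA. Of the 19 U3 matches, 16 began within the first 5 bases of U3. The loci differed from their matched RNAs at 446 bases, and the locus had T at 157 of these (35.2%) while the matched RNA had T at 73 (16.4%). C in the RNA with T in the locus (114 bases) and G with A (98 bases) were the most frequent pairs. Whether reads of the matched RNAs were assigned to these loci was not tested.

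The remaining loci fell into those whose first position lies within 5000 nt after the end of an own-strand gene (64 loci) and those with neither a match nor such a gene (157 loci). Introns of the host held 982 of the 1111 positions (88.4%), coding exons 47 and other exons 82. All 25 loci similar to 28S rRNA and all 23 similar to other structural RNAs lay in introns, as did 18 of 19 similar to U3, whereas 14 of the 64 loci after own-strand genes lay in untranslated or noncoding exons of the host. The median distance to the host's start was 49828 nt, and 16 loci lay within 1000 nt of it. For 191 loci the host had no listed position on its own strand in either table, and a listed position on the host strand within 100 nt was found at 7 loci. Most hosts were thus not represented by sense positions in the same libraries. Of the fixed gene lists, those of 49 liver secreted plasma proteins, 49 splicing factors and RNA-binding proteins, 86 ribosomal proteins and 93 histones held no host, and that of 256 snoRNA host genes held 5 (1.95%), among them EIF3A, MALRD1 and PARP16 with passing sites. Of all 20020 protein-coding gene names 1.06% were hosts. At that share a list of 49 to 93 genes would hold about 1 or none, and the list of 256 a few. The lists are not complete, and hosts outside them include genes of like function such as THPO and TXNL4A.

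Depth differed in kind between the tables. The median depth of the antisense positions was 34, 33 and 37 reads in imbalanced dNTP replicates 1 to 3 and 12, 9 and 10 reads in the balanced dNTP replicates. All 3 imbalanced libraries were above all 3 balanced ones. On the own strand of protein-coding genes the medians were 14, 13 and 19 against 13, 9 and 12 reads. The tables list different positions by different rules, so these medians carry no test: every listed position had at least 5 reads in each library of its table, with at least 3 reads with T over the imbalanced libraries and at least 1 over the balanced ones. Summed depth over all antisense positions was 58374 to 62214 reads per imbalanced library and 7518 to 10871 per balanced library, while over the whole series it was 17063930 to 22485865 and 22974020 to 34367262. Loci similar to 28S rRNA held 44.4, 46.6 and 54.0% of the antisense depth in imbalanced replicates 1 to 3 and U3-like loci held 38.0, 36.9 and 25.8%. In the balanced libraries their shares were 26.0, 25.1 and 31.9% and 16.2, 13.54 and 10.4%.

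**Figure D1:**
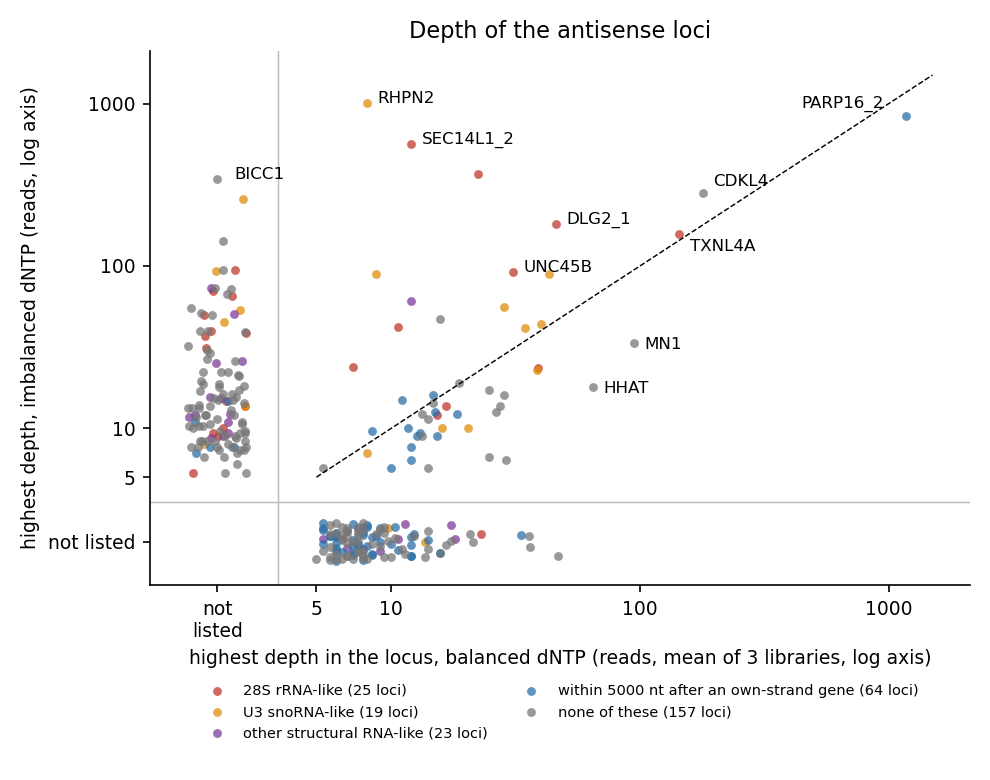
Each point is 1 of the 288 antisense loci, with its highest depth under balanced dNTP on the x axis and under imbalanced dNTP on the y axis, both as means of 3 libraries in reads on log axes, coloured by group. Loci outside a table sit in the bands marked not listed, spread at random for visibility, and the dashed line marks equal depth. RHPN2 and SEC14L1_2 lie far above the line at means of 1010 and 563 reads under imbalanced dNTP.

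The imbalanced dNTP table alone held 119 loci, the balanced table alone 118, and both held 51. A highest depth of 100 reads or more was reached at 10 loci under imbalanced dNTP and at 3 under balanced dNTP (PARP16_2, CDKL4 and TXNL4A). Deeply covered antisense positions were mostly absent from the balanced table. Of 67 antisense positions with a mean depth of 200 reads or more under imbalanced dNTP, 5 were also listed under balanced dNTP (7.46%, Wilson 95% interval 3.23 to 16.3%), while on the own strand of protein-coding genes 3380 of 4396 were (76.9%, 75.6 to 78.1%). The share stayed near that level in the antisense positions at every depth, at 10.5% of 219 positions under 20 reads, 5.41% of 222 at 20 to 49 reads and 6.73% of 208 at 50 to under 200 reads. On the own strand it rose with depth, from 5.29% through 11.8% and 26.5%. Positions with no gene on their strand and no protein-coding gene opposite had 6.57, 13.0 and 14.7% at these depths. At 200 reads or more, 60 of 307 of them were also listed under balanced dNTP (19.5%). A low share at high depth was thus not particular to the antisense positions. The 67 positions belong to 7 loci (SEC14L1_2, RHPN2, C10orf53, TRIM23, CDKL4, BICC1 and PARP16_2), so they are not 67 independent observations and the intervals cover counting error only. A position is missing from the balanced table when it had under 5 reads in a library or no read with T in any of the 3, and the table does not tell these apart.

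**Figure D2:**
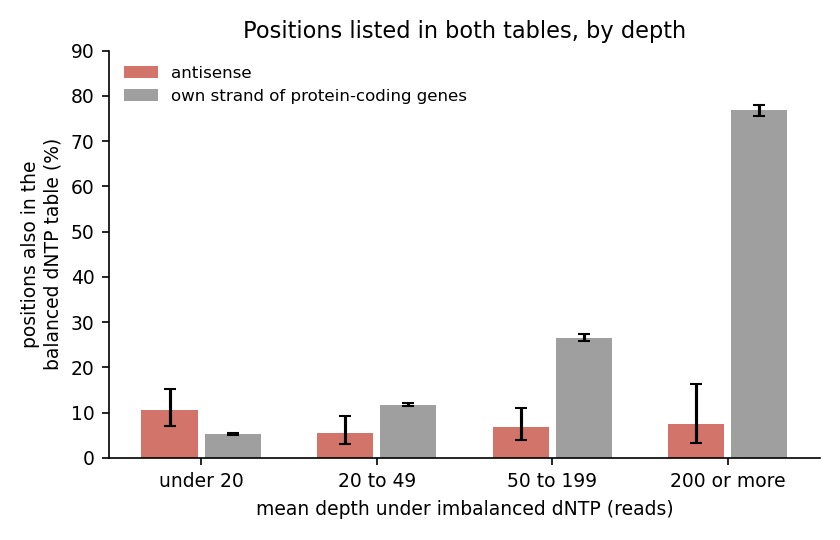
Bars give the percentage of positions of the imbalanced dNTP table that are also in the balanced dNTP table, by mean depth under imbalanced dNTP in reads, and error bars are Wilson 95% intervals. At 200 reads or more the antisense bar stands at 7.46% and the bar for the own strand of protein-coding genes at 76.9%.

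At loci listed in both tables the depth could be tested. Depth at the deepest shared position of each locus was compared with edgeR's quasi-likelihood test over 2914 loci of the series, with the replicate number as a block. The antisense loci tested were 23, of which 10 (43.5%) were higher and 2 (8.70%) lower under imbalanced dNTP, against 7.21% higher and 6.38% lower over all loci tested. The median log2 difference was 0.58 for the antisense loci and 0.03 for all loci. The antisense loci were not matched to the others in depth. With a depth limit of 20 reads, 10 of 17 antisense loci were higher and 2 lower. Of all 1430 loci tested at that limit, 213 were higher and 186 lower, a larger share in each direction than without it. Scaling matters to the sign of small differences, since raw depth over all loci tested was lower under imbalanced dNTP, with a median log2 ratio of -0.54, and the values here are relative to that. Among the 10 loci that were higher, 4 were U3-like (RHPN2, EIF3A, ADGRB3_1 and GLUD1), 4 were 28S-like (SEC14L1_2, UNC45B, DLG2_1 and TXNL4A), 1 was similar to U2 snRNA (RAPGEF4) and 1 had no match (CDKL4).

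The locus antisense to RHPN2 is a 36 nt stretch of an intron. Its tested position had 1031, 1029 and 777 reads in imbalanced replicates 1 to 3 and 10, 8 and 6 reads in the balanced ones. No value of one condition came near the other, and the log2 difference was 7.46 with an SE of 0.12 (edgeR adjusted p = 5.46e-45). SEC14L1 encodes a lipid-binding protein of the SEC14 family and faces 2 antisense loci. At SEC14L1_2 the tested position had 546, 524 and 620 reads under imbalanced and 13, 8 and 8 reads under balanced dNTP, a log2 difference of 6.42 with an SE of 0.14 (edgeR adjusted p = 1.34e-39). SEC14L1_1, on the same strand, had a highest depth of 88, 87 and 110 reads under imbalanced dNTP and was absent from the balanced table. It aligned with rRNA at under 85% identity and so was not counted as a match.

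UNC45B, a chaperone of myosin, faced a locus with 77, 89 and 98 reads under imbalanced and 15, 11 and 9 reads under balanced dNTP at the tested position, which gave a log2 difference of 3.47 with an SE of 0.21 (edgeR adjusted p = 3.73e-20). DLG2, a scaffold of synapses, faced one with 64, 82 and 101 against 15, 10 and 16 reads (log2 difference 3.13, SE 0.21, edgeR adjusted p = 1.55e-18). The conditions did not overlap at either tested position. Taken as the median over the shared positions of the locus, the log2 difference was 2.18 at UNC45B, whose other shared position had 18, 19 and 32 against 34, 19 and 25 reads. At DLG2_1 it was 0.41 with an edgeR adjusted p of 0.23, as nearby positions of the locus carried more reads under balanced dNTP. RAPGEF4, an exchange factor activated by cAMP, faced a U2-like locus with 66, 66 and 51 against 18, 11 and 7 reads. EIF3A, a subunit of a translation initiation factor, faced a U3-like locus with 48, 46 and 51 against 36, 12 and 17 reads. ADGRB3, an adhesion receptor, faced one with 82, 82 and 48 against 52, 34 and 34 reads, where the ranges overlapped between replicates of different number but each pair was higher under imbalanced dNTP. The log2 differences of these last 3 were 2.94, 1.77 and 1.42, all past the threshold.

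At 3 loci the depths of the conditions lay closer together. CDKL4, a kinase related to the cyclin-dependent kinases, faced a 6 nt locus with 254, 198 and 395 reads under imbalanced and 203, 119 and 215 reads under balanced dNTP (log2 difference 1.21, SE 0.10, edgeR adjusted p = 2.89e-15). TXNL4A, a protein of the U5 snRNP, faced a 28S-like locus with 125, 132 and 181 against 164, 110 and 155 reads, whose raw depths overlapped and whose log2 difference of 0.59 (SE 0.11, edgeR adjusted p = 2.97e-05) rested on the scaling. GLUD1, the mitochondrial glutamate dehydrogenase, faced a U3-like locus with 46, 41 and 37 against 48, 29 and 20 reads and a log2 difference of 0.97. Without the replicate block the last 2 no longer passed (edgeR adjusted p = 0.083 and 0.050), and 8 antisense loci were higher.

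Depth was lower under imbalanced dNTP opposite MN1, a transcriptional coactivator, and HHAT, the acyltransferase that palmitoylates Hedgehog proteins. The MN1 locus had 31, 15 and 17 reads under imbalanced and 120, 100 and 50 reads under balanced dNTP (log2 difference -1.47, SE 0.20, edgeR adjusted p = 5.66e-08). The 39 bases of SNORD3A printed under it were identical to the locus, a stretch too short to count as a match. The HHAT locus, a single A that lies 3 nt before the U5 pseudogene RNU5A-8P on its strand, had 21, 13 and 20 against 87, 66 and 41 reads (log2 difference -1.23, SE 0.22, edgeR adjusted p = 2.14e-05). At both loci every balanced library was above every imbalanced one. PARP16_2, the deepest antisense locus under balanced dNTP, had 972, 752 and 797 against 1556, 1001 and 960 reads, and its log2 difference of 0.12 did not pass (edgeR adjusted p = 0.25). PARP16 is a mono-ADP-ribosyltransferase of the endoplasmic reticulum, but the locus lies 1 nt beyond the annotated end of RNU5A-1.

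**Figure D3:**
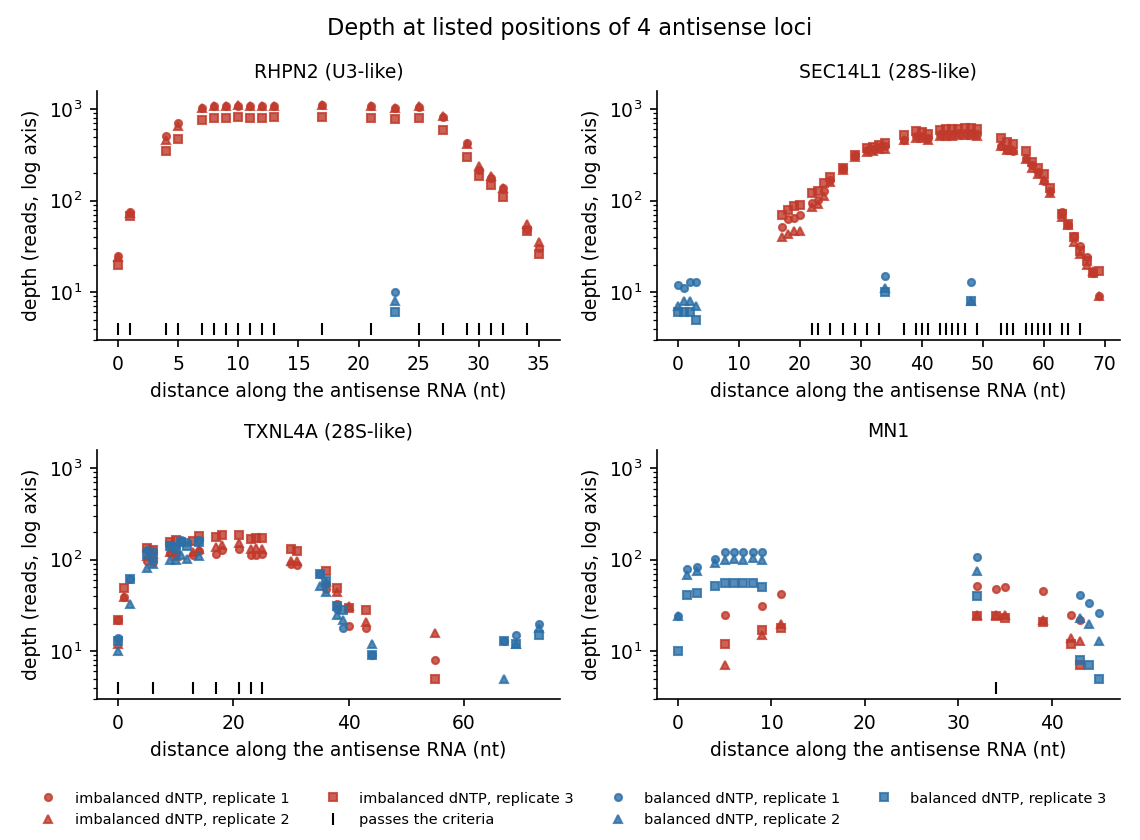
Depth in reads on a log axis is plotted at the listed positions of RHPN2, SEC14L1_2, TXNL4A and MN1 against the distance in nt from the first listed position along the antisense RNA, with 3 libraries per condition and ticks under the positions that passed the Nm criteria. RHPN2 and SEC14L1_2 are far deeper under imbalanced dNTP, both conditions lie together at TXNL4A, and MN1 is deeper under balanced dNTP.

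The Nm criteria were passed at 198 of the 716 antisense positions of the imbalanced table (27.7%, Wilson 95% interval 24.5 to 31.04%), against 16.8% of all 176343 positions of that table and 7.13% of those on the own strand of protein-coding genes. Of positions with no gene on their strand and no protein-coding gene opposite, 12.5% passed. Depth enters these shares, since the criteria ask for at least 10 reads and the antisense positions had the higher median depth. Among positions of that depth, 35.55% passed in antisense, 26.7% in the whole series and 12.7% on the own strand. Of positions of that depth with no gene on their strand and no protein-coding gene opposite, 20.55% passed. With the libraries exchanged, 5 of 449 antisense positions passed, against 0.12% of the whole balanced table. Only 5 of the 198 passing sites were listed under balanced dNTP. At the other 193 the input ratio was taken as 0, so that the criterion on the input asked nothing of them. Over the whole series 18922 of 29651 passing sites were listed in both tables. The antisense sites lay close together: 56 loci had at least 1 passing site and 30 of them had only 1, while the 10 loci with most held 119 (60.1%), and the median gap between neighbouring sites was 2 nt.

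28S-like loci held 91 passing sites (30.95% of their 294 positions), U3-like loci 52 (42.3% of 123), loci similar to other structural RNAs 6 (15.0% of 40), loci after own-strand genes 1 (2.78% of 36) and loci with none of these 48 (21.5% of 223). In the same order, the median depths in the imbalanced libraries were 45.5 to 62, 40 to 59, 18.5 to 21.5, 7 to 10.5 and 19 to 22 reads. The criteria ask for at least 10 reads, so these shares do not compare the groups at equal depth. SEC14L1_2, of 70 nt, had 28 sites and RHPN2, of 36 nt, had 20. Behind them came C10orf53 with 14, DLG2_1 with 11, TRIM23 with 10, SEC14L1_1 with 8, and ADGRB3_1, FOXJ3 and TXNL4A with 7 each. Of these 9 loci, 7 matched 28S rRNA or U3. The other two, SEC14L1_1 and FOXJ3, opposite a forkhead transcription factor gene, matched rRNA only when identity down to 80% was allowed. Without the loci that matched a structural RNA 49 of 259 positions passed (18.9%), and with the 80% limit 31 of 210 (14.8%). Without such an exclusion, the share was 16.8% of all listed positions and 7.13% on the own strand of protein-coding genes. It was 12.5% of the positions with no gene on their strand and no protein-coding gene opposite.

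T/N was not even along these clusters. RHPN2 had a mean depth of 944 to 1010 reads at its 11 deepest positions and a median T/N of 1.85% there, and a median of 17.0% at its 11 shallower ones, which lie at the edges. The first listed base of the cluster, the C at chr19:33051436, had T in 80, 87.5 and 80% of reads at depths of 25, 24 and 20. It was the highest T/N of any passing C with at least 20 reads in every library. SNORD3E has T at that base. The A at chr19:33051465 had 35.9, 39.7 and 46.0%, and there SNORD3E has A as well. The same order was seen at TRIM23, which faces a ubiquitin ligase gene (2.07% at the 8 deepest and 16.04% at the 7 shallower positions), at C10orf53 (2.32 and 11.1%, 12 positions each), at DLG2_1 (2.38% at 22 and 6.08% at 21 positions) and at SEC14L1_2 (3.11 and 5.78%, 20 each). Positions of a cluster share reads, and T/N of under 10 reads with T is imprecise. A lower listing limit on reads with T also keeps shallow positions of low T/N out of the table.

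With at least 20 reads in every library, the passing A of highest T/N lay opposite KATNBL1, a katanin-like protein gene, at chr15:34181443, with 92.3, 94.1 and 95% in the 3 libraries at 26, 34 and 20 reads. Its locus matched a structural RNA only when an alignment of 30 nt at 90% identity was allowed. Among passing G it was the G opposite UNC45B at chr17:35151209, with 55.6, 51.8 and 59.8% and a mean depth of 82.3 reads, where 28S rRNA has G too. Neither position was in the balanced table. The locus opposite BICC1, an RNA-binding protein gene, was absent from the balanced table as well and matched no structural RNA. Its C at chr10:58761956 had 25, 37.1 and 35.03% at 108, 97 and 157 reads, and its G at chr10:58761966 had 1.59, 1.13 and 1.36% at 315, 266 and 440 reads.

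Between the conditions T/N could be compared at the 54 antisense positions in both tables. Summed over them, T/N was 8.13, 7.002 and 7.89% in imbalanced replicates 1 to 3 and 6.86, 7.43 and 10.5% in the balanced ones. The conditions overlapped, and the difference of -0.60 ± 1.95 percentage points (SD, n = 3 pairs) did not pass an exact paired permutation test (two-sided p = 0.75, with 0.25 the smallest that 3 pairs allow). At all other positions in both tables the difference was 3.26 ± 0.10 percentage points, higher under imbalanced dNTP in all 3 pairs (3.47 against 0.21%). The sign of the antisense difference depended on how positions were weighted and chosen. It was 5.14 percentage points as an unweighted mean over positions and 3.06 at the 7 positions of at least 50 reads (both higher in 3 of 3 pairs), and 0.42 in the sum without replicate 3. Without the 17 positions whose balanced T/N was 20% or more in any replicate, the difference was 3.11 ± 0.56 percentage points (4.83 ± 0.36 against 1.72 ± 0.20%), again in 3 of 3 pairs. Leaving out high input values raises this difference by construction, so it is given as a description, and the 11 U3-like positions that stayed had a difference of -0.73 (1 of 3 pairs higher). Among the positions left out, the A opposite CDKL4 at chr2:39220962 had T in 91.8 to 100% of reads under imbalanced and 85.2 to 100% under balanced dNTP, and the C of DLG2_1 at chr11:85483994 had 33.3 to 50.0% and 28 to 58.8%.

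Position by position, edgeR tested reads with and without T at 31 antisense positions covered by 10 reads or more in each of the 6 libraries. T/N was higher under imbalanced dNTP at 6 of them (19.4%) and lower at none (0.0558% of all), against 73.9% higher of the 32284 positions tested in the series. The median log2 difference was 1.12 for the antisense positions and 3.94 for all. At an unadjusted p under 0.05, 8 of the 31 differed, and DESeq2 also called 6 higher and none lower. Replicates decide much of this count: without replicate 1, 2 or 3 it was 2, 1 or 5, and Fisher's exact test in every pair left 1.

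The 6 positions were found at 5 loci. The A of PARP16_2 at chr15:65296167 had 2.78, 3.19 and 3.01% under imbalanced and 0.71, 0.50 and 0.73% under balanced dNTP (log2 difference 2.19, SE 0.39, edgeR adjusted p = 6.35e-08). At TXNL4A the G at chr18:80012972 had 13.7, 15.7 and 10.2% against 0.79, 1.12 and 2.86% (log2 difference 3.11, SE 0.79, edgeR adjusted p = 1.73e-04). Its G at chr18:80012966 had 50.0, 33.3 and 40.9% against 0, 0 and 7.69% (edgeR adjusted p = 0.018). The conditions were apart in every library at these 3 positions. Opposite HHAT, the A at chr1:210374270 had 19.0, 53.8 and 15.0% against 0, 0 and 2.44%, and at ADGRB3_1 the A at chr6:68665178 had 22.0, 20.7 and 18.8% against 0, 2.94 and 2.94% (edgeR adjusted p = 2.52e-04 and 1.99e-03). At MN1 the A at chr22:27793378 had 21.2, 8.00 and 4.17% against 0.94, 0 and 0% (edgeR adjusted p = 2.92e-03), with replicate 1 far above the other two. Each of the 6 was higher under imbalanced dNTP in 3 of 3 pairs.

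**Figure D4:**
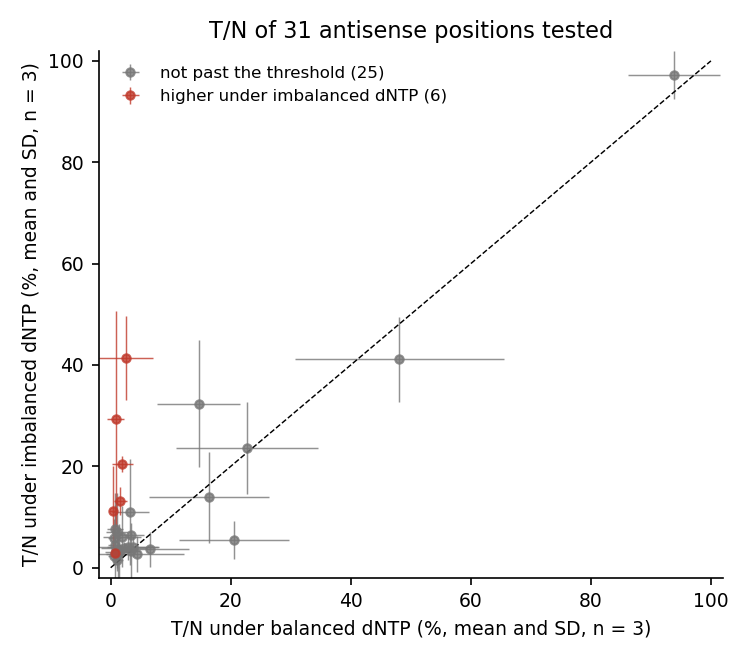
Each point is 1 of the 31 antisense positions tested, with T/N in percent under balanced dNTP on the x axis and under imbalanced dNTP on the y axis as mean and SD of 3 libraries. The 6 positions past the threshold lie above the dashed line of equality with balanced means under 3%, and 2 grey points near 41 and 97% lie close to the line.

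By reference base, T/N of the antisense positions under imbalanced dNTP was 6.63 ± 0.23% for the 248 G, 7.01 ± 0.06% for the 253 A and 8.27 ± 0.09% for the 215 C (mean ± SD of 3 replicates). Summed over all groups of loci, G was lowest in every replicate. By group mean, G was lowest only in the U3-like loci, at 4.70% against 7.0% for A and 9.77% for C. In the rRNA-like loci A was lowest, at 4.86% against 6.13% for G. G was highest in loci similar to other structural RNAs (19.9%) and in loci after own-strand genes (20%). In loci with neither a match nor such a gene C was lowest, at 11.2% against 13.3% for G. The summed order was thus not that of each group. On the own strand of protein-coding genes G was highest in every replicate, at 7.16 ± 0.61% against 4.55 ± 0.51% for A and 4.91 ± 0.51% for C. Under balanced dNTP the antisense values were 8.60 ± 1.69, 5.03 ± 0.67 and 7.87 ± 1.20%, with the own-strand values between 0.97 and 1.26%. Each of the 3 differences between bases under imbalanced dNTP had the same sign in 3 of 3 pairs and an exact paired permutation p of 0.25, the smallest possible, with an adjusted p of 0.25. As unweighted means of positions the antisense values were 16.7% for G, 17.0% for A and 18.1% for C.

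**Figure D5:**
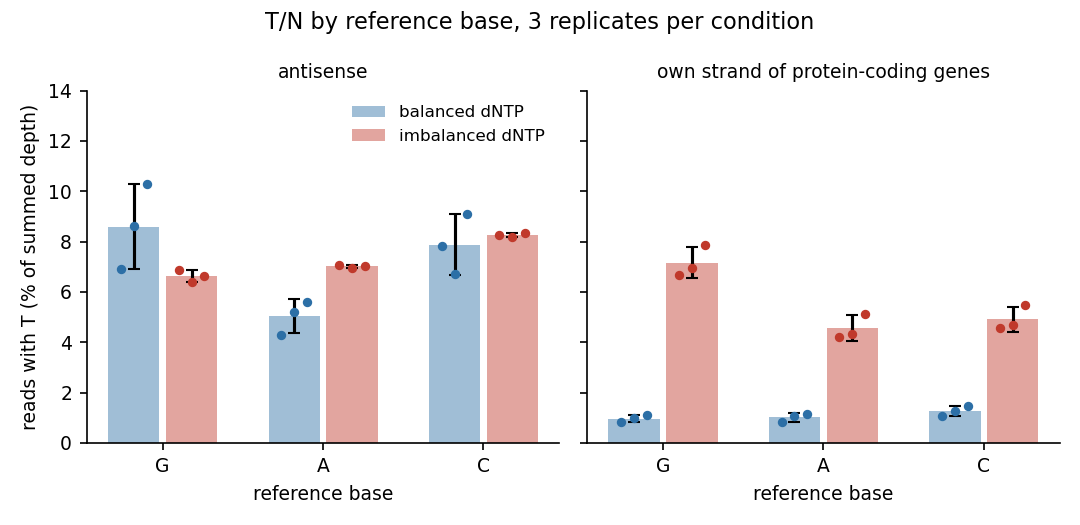
Bars show reads with T as a percentage of summed depth by reference base and condition, for antisense positions on the left and the own strand of protein-coding genes on the right, with points for the 3 replicates and error bars of 1 SD. Antisense bars stand between 5.03 and 8.60% in both conditions, while the own-strand bars under balanced dNTP stay near 1%.

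G made up 34.6% of the antisense positions in the imbalanced table and 47.3% of all its positions. Among sites passing the Nm criteria, 65 of 198 antisense sites were G (32.8%, Wilson 95% interval 26.7 to 39.6%), against 40.1% over the whole series and 52.2% on the own strand of protein-coding genes. A was the most frequent base of the antisense sites, with 84, and C had 49. The U3-like loci contributed 29 A, 14 G and 9 C, and the 28S-like loci 39 G, 31 A and 21 C. T/N differed by group within each base: at A it was 7.02 ± 0.13% in U3-like and 4.86 ± 0.28% in 28S-like loci, and at G 4.70 ± 0.30 and 6.13 ± 0.26%. A U on both sides of the position was found at 109 of 716 antisense positions of the imbalanced table (15.2%) and at 33 of 198 passing sites (16.7%). In the balanced table it was found at 29 of 449 antisense positions (6.46%), which were listed by another rule. The share over all positions of the series was not computed, so these counts do not tell whether this context was frequent or rare.

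Under imbalanced dNTP, T/N summed over depth was higher at the few positions where a locus differed from its matched RNA. The sets compared were not matched for depth or for place in a cluster. At RHPN2 the median T/N was 17.0% at the 11 shallower positions and 1.85% at the 11 deepest. Whether the differing base or the depth goes with the contrast was not tested. At 409 positions with the same base in both, T/N under imbalanced dNTP was 5.65 ± 0.11% (SD, n = 3). It was 37.0 ± 3.8% at the 8 positions where the matched RNA has T and 29.0 ± 1.2% at the 20 where it has another base or none. At the passing site NUP210L (chr1:154117003), in a U3-like locus opposite a nucleoporin-like gene, the genome has A and U3 has T, and T/N was 96.4, 94.1 and 94.7%. Of the 198 passing sites, 132 had the base of the matched RNA, 4 had a T in it and 11 had another base or none. Under balanced dNTP the 6 positions facing a T of the matched RNA had 2.73 ± 1.21%, those with the same base 4.16 ± 0.49%, and the 5 with another base or none 8.72 ± 3.11%.

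Loci after own-strand genes had another shape. They were short stretches at low depth, several of them often lying in a row, with a median of 7 to 10.5 reads in the imbalanced libraries and 7 to 9 in the balanced ones, and 136 of their 170 positions were in the balanced table. Opposite COX7A2L, a factor of respiratory supercomplex assembly, 14 loci ran from chr2:42333551 to chr2:42338248, and the first began 1003 nt after the end of EML4 on the same strand. The last 3 of them began more than 5000 nt after that end and so belong to the loci with none of these features, but are described with the others here. No library had more than 19 reads at any of their positions. Of these positions 46 were listed under balanced and 20 under imbalanced dNTP, none of which passed. T/N was 16.02, 13.8 and 17.1% under imbalanced and 3.83, 4.99 and 1.96% under balanced dNTP over the positions of each table. These values do not compare the conditions. Listing asked for at least 3 reads with T over the imbalanced libraries and at least 1 over the balanced ones. At such depths this limit alone raises T/N in the imbalanced table. Opposite THPO, which encodes the thrombopoietin made by liver, 21 balanced and 5 imbalanced positions lay in 4 loci at 5 to 28 reads, and opposite CCDC200 19 and 3 positions lay in 8 loci. The only passing site of the group was PARP16_2. Since the tables differ in the T reads they ask for, the counts of listed positions do not compare the level of these RNAs.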

How the data were processed

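Chromatin-associated RNA of HepG2 was measured in 3 biological replicates and 2 conditions. The authors trimmed reads (Cutadapt), removed duplicates by molecular identifiers (BBMap), mapped 100 nt single-end reads to hg38 with TopHat2, allowing up to 4 places per read and 3 mismatches, and counted bases with JACUSA. The tables that the authors deposited hold raw counts of reads with each base per position, strand and library. Genes, hosts and structural RNAs come from GENCODE release 44 and the 45S pre-rRNA from RefSeq. The members, groups and lists were chosen with earlier results of these data known.

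Loci with a 50 nt flank were aligned to 5687 structural transcripts and the 45S with blastn 2.17.0, leaving out genes at the locus itself. Tests of depth and mutated share ran in R 4.3.3 with edgeR 4.0.16 (its quasi-likelihood test, Benjamini-Hochberg over all loci or positions of the series, threshold 0.05), after checks on simulated data. Alternatives included Fisher's exact test and DESeq2 1.42.0, other depth, identity and gap limits, and leaving out each replicate. Depth used TMM, reads with T were modelled with an effect per library. The criteria left out the spike-in background, which is not used here, and an unlisted input counted as 0. Other steps used Python 3.11.15, scipy 1.17.1 and pandas 2.3.3. Intervals cover counting error only.

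The replicate numbers pair the libraries, since the RNA of each replicate was divided. Deviations of log2 depth at 24432 positions correlated at 0.75, 0.59 and 0.87 within replicates 1, 2 and 3, but also across replicates 1 and 2 (0.70 and 0.60). At most 4.90% of antisense positions had identical counts in any pair of replicates of a condition. Loci were named by rule: hosts with most positions, loci with most passing sites, highest depth and largest depth change, and the passing site of highest T/N per base. One locus that this rule names is not reported here.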

Additional observations from a re-analysis of the deposited data

How the results depend on the processing

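The 198 passing antisense sites became 164 at a minimum depth of 20, 118 at 50, 124 with at least 5 reads with T, 132 and 85 at mutation ratios of at least 0.05 and 0.1, and 243 to 255 when 1 replicate was left out. Listing in both tables left 5. Without loci that match a structural RNA the count was 49, and, with limits chosen after seeing the data, 31 (80% over 50 nt), 79 (90% over 50 nt) and 42 (90% over 30 nt added). The other alternatives gave 142 (without RHPN2 and SEC14L1) to 199. The share of G stayed between 29.4 and 33.7%. The 6 positions with a higher mutated share became 11 (10 higher, 1 lower) without the replicate block, 1 by Fisher's exact test in all pairs, 5 to 7 with other depth limits and 1 to 5 when a replicate was left out. The 12 loci with a changed depth were 10 to 13 under every alternative run, 10 without the replicate block. The difference in T/N of -0.60 percentage points turned to 5.14 as an unweighted mean, 3.06 at a depth of at least 50 (7 positions), 1.13 at A and 1.92 at G, with -4.81 at C, 3.11 without positions of 20% T or more in the input, 6.67 for their unweighted mean (added after seeing the data), and -1.53 to 0.42 when a replicate was left out. The paired test cannot go below 0.25. Of 193 depth values of single loci under other settings, 186 kept direction and side of the threshold, 3 were weaker (DLG2_1, GLUD1, TXNL4A) and 4 changed sign when a replicate was left out, none of which had passed: their log2 differences then ran from -0.081 to 0.34 at FZD6, -0.28 to 0.073 at PPEF2_1, -0.47 to 0.96 at PRRC2C and -0.71 to 0.037 at SLC35F4. The causes were not tested. Soft-masked repeats were not left out, since the genome used has no such marks. At under 10 reads with T the precision of a single T/N is low.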

Other observations

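At 7 passing antisense sites T/N was 90% or more in all 3 imbalanced dNTP libraries. Besides the U3-like site opposite NUP210L and the A opposite KATNBL1, they were 1-site values at ENSG00000285827 (A, 100, 100 and 100%, 15 to 23 reads), VARS1, a valyl-tRNA synthetase gene (A in a coding exon, 100, 95 and 100%), SLC24A3 (G, 100, 100 and 92.9%), STX16-NPEPL1 (G, 96.7, 95.2 and 100%) and MALRD1 (A, 93.3, 100 and 92.3%). None of the 7 was in the balanced dNTP table, so their T/N under balanced dNTP is not known from these data.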
